A study of Neurospora crassa with 2 samples.

Results

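The 5 core genes of the circadian clock and the light response of *Neurospora crassa* were chosen by locus: the clock gene *frq* (NCU02265), the light-activated transcription factor genes *wc-1* (NCU02356) and *wc-2* (NCU00902), the photoreceptor gene *vvd* (NCU03967) and the helicase gene *frh* (NCU03363). They are 5 of the 9730 genes in the expression table. *N. crassa* is a filamentous ascomycete, and the table holds RNA-seq of its mycelia from 2 libraries: 1 of the wild type (WT) and 1 of Δ*gul-1*, a strain that lacks the gene of an mRNA binding protein related to yeast Ssd1. Both strains were inoculated as conidia into Avicel medium, whose carbon source is crystalline cellulose, and cultured for 3 days under constant light. The WT and the stock strain with the *gul-1* deletion are both listed by the study as mating type A, and the deletion is represented by a single strain. With 1 library per strain, no difference below has a replicate and no p-value is given.

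In the *Neurospora* clock, WC-1 and WC-2 form the white collar complex (WCC), which switches on *frq*. The FRQ protein, held in a stable form by its partner FRH, then shuts the WCC off with the help of casein kinase, and closes the loop. The WCC is also the blue-light receptor, since WC-1 carries a flavin. In light it drives *frq*, *vvd* and many other genes, and the small photoreceptor VVD in turn damps it, which is known as photoadaptation. In constant light the rhythm is lost.

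None of the 5 genes differed 2-fold between the strains. Values are RPKM (reads scaled by exon length in kilobases and by the total assigned to genes) as deposited. A gene was counted where it was above 20 RPKM in at least 1 library, the expression floor of the study's methods, and as higher or lower at a ratio of Δ*gul-1* to WT of at least 2 or at most 0.5. All 5 passed the floor, and 0 of them were higher and 0 were lower. Of all genes measured, 4409 passed the floor, of which 6.51% were past 2-fold in either direction (3.88% higher and 2.63% lower). This split depends on the library scaling: 171 genes were higher and 116 lower on the deposited RPKM, but 137 higher and 151 lower with TMM or median-of-ratios scaling. There the floor stayed on the deposited RPKM. With the whole TMM shift put on the Δ*gul-1* values, and the floor on those and on the deposited WT values, 131 genes were higher. As most genes lay within 2-fold, the share of 6.51% sets no core gene apart from the rest. The median log2 ratio of the 5 genes was 0.21, and that of all genes past the floor was 0.11.

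The libraries held 20461987 reads assigned to genes in the WT and 20341292 in Δ*gul-1*. The deleted gene, read as a check of the labels, had 21537 reads in the WT against 304 in Δ*gul-1*. Intervals are exact 95% intervals from the reads (Poisson for a level, conditional binomial for a ratio). They cover counting error only, and not the variation between cultures. Scaling by TMM, a trimmed mean of the gene ratios, lowered every log2 ratio by 0.15 and the median of the genes past the floor to -0.044, so that small ratios above 1 depend on the scaling.

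*frq*, the gene that the feedback loop turns on and off, lies on chromosome VII, 3131640 to 3136464 in the RefSeq annotation of the NC12 assembly, with 4327 bases of exons. The WT library gave it 4580 reads, or 51.7 RPKM (interval 50.2 to 53.2), and the Δ*gul-1* library 4737 reads, or 53.8 RPKM (interval 52.3 to 55.4). The ratio was 1.04 (interval 0.999 to 1.08), the smallest of the 5, and its interval held 1. With TMM scaling the ratio turned below 1, to 0.938 (interval 0.900 to 0.977). An antisense RNA, *qrf*, is known from the same locus. For the counting, a strand setting was not given in the sources used here. Reads of *frq* and *qrf* therefore cannot be told apart in these values.

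Both genes of the WCC had slightly more reads in Δ*gul-1*. *wc-1* (chromosome VII, 2767393 to 2773846, 6387 bases of exons) was read 3381 times in the WT (25.9 RPKM) and 4007 times in Δ*gul-1* (30.8 RPKM). Its ratio of 1.19 (interval 1.14 to 1.25) was the largest of the 5. *wc-2* (chromosome I, 6815517 to 6819124, 3365 bases of exons), whose protein is the zinc finger partner of WC-1, was read 4376 times in the WT (63.6 RPKM) and 5095 times in Δ*gul-1* (74.4 RPKM). The ratio of *wc-2* was 1.17 (interval 1.12 to 1.22). Both stayed above 1 with TMM scaling, at 1.07 (interval 1.03 to 1.13) for *wc-1* and 1.06 (interval 1.01 to 1.10) for *wc-2*.

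*vvd*, the gene of photoadaptation, was the most abundant of the 5 (chromosome VI, 2268533 to 2271812, 3147 bases of exons). Its 13161 WT reads came to 204 RPKM and its 15083 reads in Δ*gul-1* to 236 RPKM, a ratio of 1.15 (interval 1.13 to 1.18). The ratio was 1.04 with TMM scaling (interval 1.02 to 1.06). *frh* (chromosome II, 964247 to 968587, 4273 bases of exons), whose product is related to the yeast helicase Mtr4 of RNA decay as well as being the partner of FRQ, was the least abundant. Its 1740 WT reads came to 19.9 RPKM, just under the floor, and its 1903 reads in Δ*gul-1* to 21.9 RPKM, just above it. The ratio of *frh* was 1.10 (interval 1.03 to 1.17). With TMM scaling it was 0.992 (interval 0.929 to 1.06), so that its direction turned with the scaling, as that of *frq* did.

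**Figure D1:**
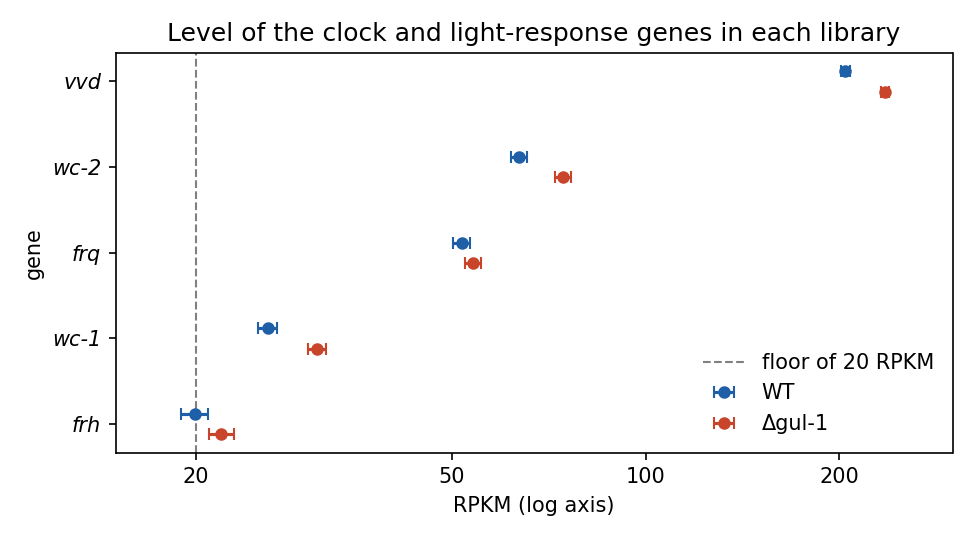
Level of each core gene in RPKM (log axis) in the WT (blue) and Δ*gul-1* (red) libraries, 1 library each, with exact 95% Poisson intervals as bars. The order of the genes was the same in both libraries, from *vvd* at 204 and 236 RPKM down to *frh* at 19.9 and 21.9 RPKM at the floor of 20 RPKM (dashed line).

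The order of the levels per length was the same in both libraries: *vvd*, *wc-2*, *frq*, *wc-1* and *frh*. The counting intervals of neighbours in this order overlapped in neither library, although the spread between cultures is not known. Among all 9730 genes, *vvd* was the gene of rank 369 in the WT and 312 in Δ*gul-1* by RPKM. *wc-2* had ranks 1348 and 1198, *frq* 1658 and 1703, *wc-1* 3255 and 3018, and *frh* 3976 and 3973. By rank *frq* alone of the 5 stood lower in Δ*gul-1* than in the WT.

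Small as they were, 4 of the 5 ratios had a counting interval wholly above 1, that of *frq* being the exception. Such an interval is no rare thing at this depth: it lay above 1 for 52.3% of the genes past the floor. The quartiles of their log2 ratios were -0.11 and 0.31, and all 5 core genes lay between them. A ratio higher than that of *wc-1* was found for 30.7% of the genes past the floor, and one higher than that of *frq* for 56.3%. The span of the core genes, from 0.057 to 0.25 on the log2 scale, held 25.6% of the genes past the floor. Relative to the median gene, the log2 ratio was 0.15 for *wc-1*, 0.12 for *wc-2*, 0.10 for *vvd*, 0.032 for *frh* and -0.048 for *frq*. The counting interval held the median ratio for *frq* and *frh* only. It did not hold the median for 76.8% of the genes past the floor.

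**Figure D2:**
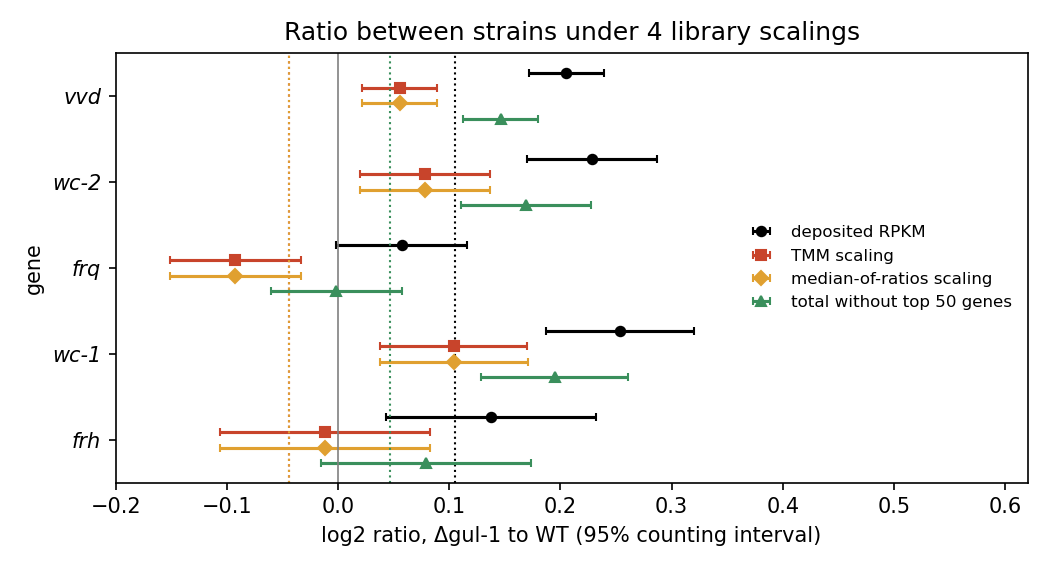
The log2 ratio of Δ*gul-1* to WT for each core gene under the deposited scaling and 3 others, with 95% counting intervals as bars and, as dotted lines in the same colours, the median of the 4409 genes past the floor under each (the TMM and median-of-ratios lines coincide). *wc-1*, *wc-2* and *vvd* stayed above 0 under every scaling shown, while *frq* went from 0.057 to -0.093 and *frh* from 0.14 to -0.012 with TMM.

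A ratio between 2 genes of the same library does not depend on how the libraries are scaled, and was taken for all 10 pairs of the core genes. For the 2 partners of the WCC, *wc-1* stood at 0.407 of *wc-2* in RPKM in the WT and at 0.414 in Δ*gul-1*. The quotient of these, Δ*gul-1* over WT, was 1.02 (interval 0.957 to 1.08). The target *frq* stood at 2.00 times *wc-1* in the WT and 1.74 times in Δ*gul-1*, a quotient of 0.873 (interval 0.820 to 0.928). Against *wc-2* the quotient of *frq* was 0.888 (interval 0.839 to 0.941). Against *vvd*, also a light target of the WCC, *frq* stood at 0.253 in the WT and 0.228 in Δ*gul-1*. The quotient was 0.902 (interval 0.861 to 0.946). *frq* to its partner *frh* gave 0.946 (interval 0.875 to 1.02). The intervals of 3 of the 10 quotients excluded 1, against 79.2% of all pairs of genes past the floor (by a normal approximation). The 3 pairs share the reads of *frq* and are not separate results. For *wc-1* to *frh* the interval reached down to 1.00 (quotient 1.08). The side of 1 on which a quotient lies depends on which gene is on top. That was *frq*, the gene of the lowest ratio, in its own pairs, and the gene of the higher ratio in the others. Over all 10 pairs, taken in this order, the quotients ran from 0.873 to 1.08. Whether these differences exceed the spread between cultures cannot be told from 1 library per strain.

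**Figure D3:**
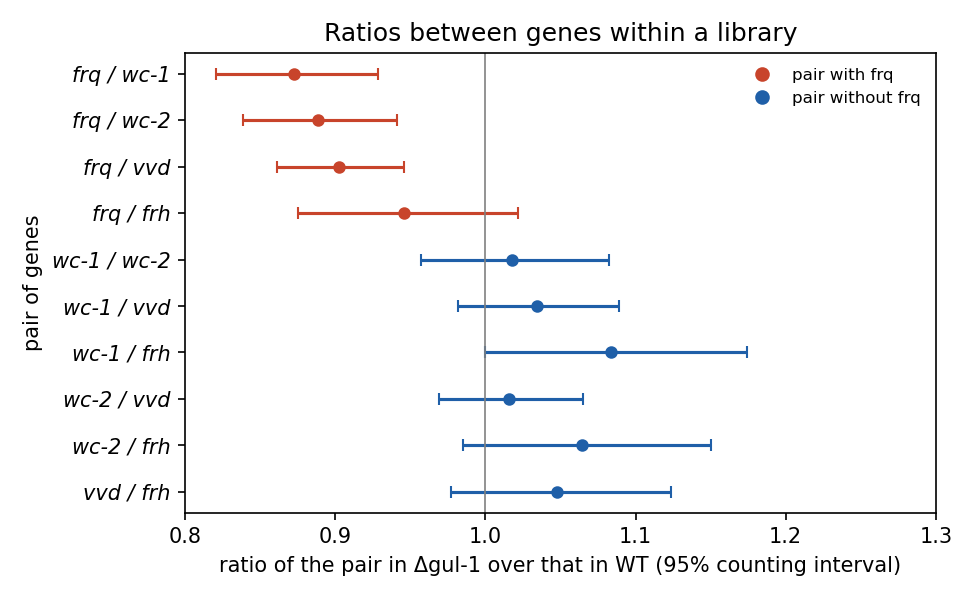
Quotient of the RPKM ratio between each pair of core genes, Δ*gul-1* over WT, for the 10 pairs, with exact 95% counting intervals as bars. The 4 pairs with *frq* (red) lay at 0.873 to 0.946, and the 6 pairs without it (blue) at 1.02 to 1.08. The side of 1 follows from the order within a pair. *frq*, with the lowest ratio, was on top in its pairs, and the gene of the higher ratio in the others.

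No gene of the RefSeq annotation overlapped any of the 5 loci. The counted genes on either side, 10 in all, lay 297 to 7375 bases away, and none was past 2-fold. As only 6.51% of all genes past the floor were past 2-fold, this does not set so few neighbours apart. Beside *frq*, the prefoldin subunit gene NCU02264, 868 bases away, stood at 30.6 RPKM in the WT against 47.8 in Δ*gul-1*, and NCU02267 at 16.1 against 14.1 RPKM. The genes beside *wc-1* were the importin subunit gene NCU02357 (39.9 and 50.3 RPKM) and NCU02355 (47.8 and 46.0 RPKM). Those beside *wc-2* were NCU00903 (132 and 159 RPKM) and the DNA repair gene *uvs-6* (16.8 and 16.2 RPKM). Those beside *vvd* were NCU03966 (10.5 and 13.7 RPKM) and NCU03968 (9.23 and 14.8 RPKM), and those beside *frh* NCU03364 (129 and 138 RPKM) and NCU03362 (46.1 and 48.6 RPKM). The log2 ratios of the 10 neighbours ran from -0.19 to 0.68, a wider span than that of the core genes. Only 6 of the 10 passed the floor, and both ends of the span (NCU02267 and NCU03968) were below it.

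By the distance in log2 RPKM over the 2 libraries, the gene nearest to each core gene was named. With 2 libraries this only finds a gene of the same level and the same ratio. The nearest to *frq* was the SNF7 family gene NCU04541 (51.8 and 53.5 RPKM, distance 0.0092). For *wc-1* it was NCU04838 (25.8 and 30.4 RPKM, distance 0.019), for *wc-2* the kinase gene *prk-10* (63.4 and 75.6 RPKM, distance 0.023), for *vvd* the ubiquitin fusion gene NCU05275 (207 and 234 RPKM, distance 0.019), and for *frh* the quinone oxidoreductase gene NCU01419 (597 WT reads against 655 in Δ*gul-1*, distance 0.012).

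Around the core loop, the kinases, phosphatases and turnover factors that act on FRQ and the WCC also lay within 2-fold. Of 13 listed genes 12 passed the floor, with 0 higher and 0 lower, and their log2 ratios ran from -0.17 to 0.34 with a median of 0.15. Of all genes past the floor only 6.51% were past 2-fold. A count of 0 among so few genes therefore sets neither this list nor the COP9 genes below apart. *ck-1a*, the casein kinase I that FRQ brings to the WCC, was the most abundant at 260 RPKM in the WT against 291 in Δ*gul-1*. Those farthest from 0 were the phosphatase gene *pph-3* (196 and 249 RPKM), *fwd-1* (56.2 and 70.1 RPKM), the F-box protein that sends FRQ to the proteasome, and *prd-4* (52.7 and 63.0 RPKM), a checkpoint kinase. The COP9 signalosome, which keeps the ubiquitin ligase of FRQ active, had 7 of 8 genes past the floor and 0 of them past 2-fold (median 0.22). *csn-7* had the largest ratio of these, at 32.3 and 46.4 RPKM. *prd-6*, a further clock period gene, had 51.2 and 47.7 RPKM, and the RNA helicase gene NCU07839 68.4 and 70.3 RPKM. Of 5 genes annotated to the RNA exosome, the decay complex with which Mtr4 works in yeast, only the *Rrp6* gene NCU02256 reached the floor (17.7 and 20.9 RPKM). NCU00812, annotated as *RRP41*, had 15.4 and 10.5 RPKM, below the floor in both libraries.

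Among the other photoreceptors and the photolyase, 3 of 5 genes passed the floor and 0 were past 2-fold, where 6.51% of all genes past the floor were. So few genes cannot be set apart from that share. The cryptochrome gene *cry* had 61.5 RPKM in the WT against 51.4 in Δ*gul-1*, the opsin gene *nop-1* 18.7 and 23.6 RPKM, and the DNA photolyase gene *phr* 20.1 and 24.1 RPKM. The phytochrome gene *phy-1* was below the floor at 15.6 and 16.8 RPKM. *phy-2* was rarely read, with 61 reads in the WT against 208 in Δ*gul-1* (0.852 and 2.92 RPKM), a ratio of 3.43 (interval 2.57 to 4.64) far below the floor.

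The light-responsive transcription factors downstream of the WCC had 7 of 7 genes past the floor, of which 0 were higher, 1 was lower and 6 lay within 2-fold (median log2 ratio -0.10). Of all genes past the floor 3.88% were higher and 2.63% lower, and 1 gene of 7 is too few to set against these shares. The abundant *sah-1* had 261 and 243 RPKM and *adv-1* 95.3 and 88.7 RPKM. *sub-1*, a GATA factor that passes on the light signal of the WCC, had 46.9 and 54.1 RPKM, and *csp-1*, a repressor that links the clock to metabolism, 74.4 and 61.6 RPKM. The exception was *fl*, a regulator of conidial development, at 55.2 RPKM in the WT against 22.3 in Δ*gul-1* (2.48-fold lower, interval 2.33 to 2.64).

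Past 2-fold ratios were found among the output genes, which are switched by light or by the clock. All 9 of those listed passed the floor, and 1 was higher, 4 were lower and 4 lay within 2-fold (median log2 ratio -0.16), where 3.88% of all genes past the floor were higher and 2.63% lower. This list was chosen with earlier results of these data known, and the paper had already reported *eas* as lower. The counts are therefore no test against those shares. The lower ones were the hydrophobin gene *eas* (5793 against 169 RPKM), *ccg-6* (7165 against 2007 RPKM), the carotenoid gene *al-2* and *ccg-14*, the last at 76.9 RPKM in the WT against 32.5 in Δ*gul-1* (2.36-fold lower, interval 2.22 to 2.51). The carotenoid genes, known targets of the WCC, did not share a direction, with either the deposited or the TMM scaling. *al-1*, for phytoene desaturase, had 102 and 91.5 RPKM, *al-2* 92.9 and 37.5 RPKM, and *al-3*, for geranylgeranyl diphosphate synthase, 32.8 and 45.9 RPKM. *ccg-1* had 2842 and 4847 RPKM, and *con-10* 159 and 229 RPKM. The higher gene was *con-6*, at 10.3 and 21.3 RPKM, and it lay within 2-fold with TMM scaling (log2 ratio 0.89).

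*fl*, *eas*, *con-6* and *con-10* are also markers of conidia. Of the 6 conidial markers listed, which add *con-8* and *con-13*, 3 had a ratio above 1 and 3 below 1, and 0 were without reads. Their summed level was 6727 RPKM in the WT against 958 in Δ*gul-1*. Without *eas* it was 933 and 789 RPKM, of which *con-8* alone held 706 and 511 RPKM. *con-13*, one of those with a ratio above 1, was below the floor in both libraries (3.15 and 5.14 RPKM). The part of conidia in the values of the output genes was not tested, and in RNA of whole mycelia fewer cells of a type cannot be told apart from less RNA per cell.

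**Figure D4:**
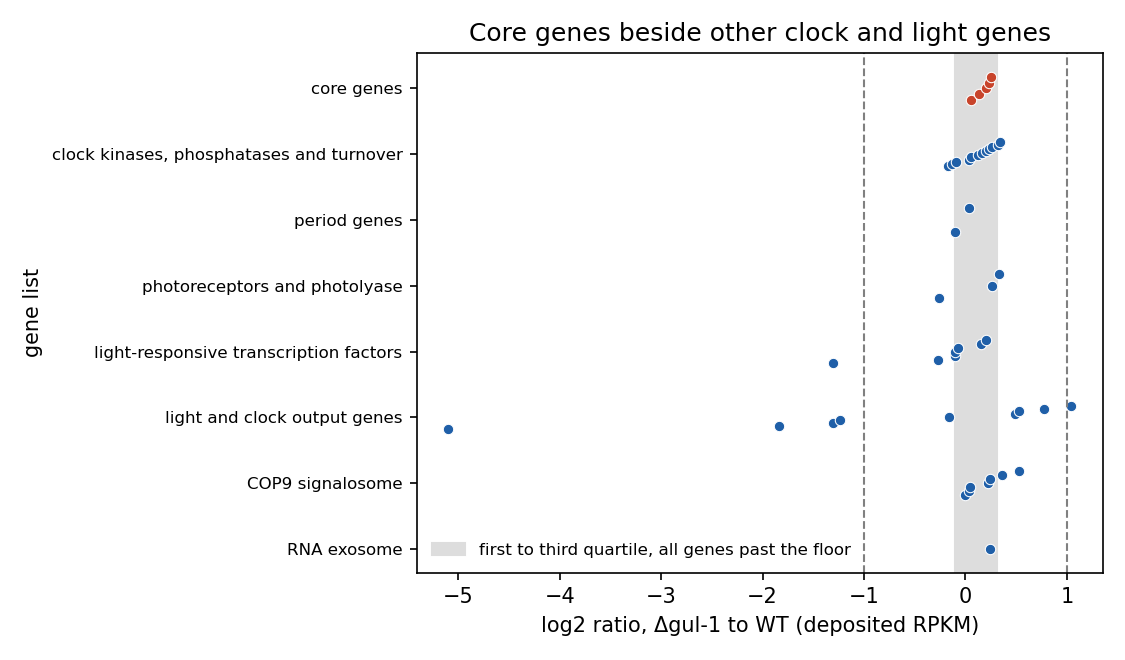
Log2 ratios of Δ*gul-1* to WT on the deposited RPKM for the core genes (red) and for the listed clock and light genes past the floor (blue, 1 point per gene, spread vertically so that they can be seen), with 2-fold as dashed lines and the range between the quartiles of all genes past the floor in grey. The core genes lay between 0.057 and 0.25, inside the grey band, while points past the dashed lines appear only among the transcription factors (*fl*) and the output genes, from -5.10 for *eas* to 1.04 for *con-6*, which lay within 2-fold with TMM scaling.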

How the data were processed

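RNA was isolated from mycelia, and the data hold 1 WT and 1 Δ*gul-1* library. How many cultures went into each library is given neither by the sample labels nor by the paper's RNA-seq methods. The authors aligned reads to predicted transcripts of the *N. crassa* genome (version 12) using TopHat 2.0.8b. Reads unique to 1 gene were counted by the authors with HTSeq 0.5.4p2, and these raw counts were deposited (tool versions from the submitters' processing notes). The deposited RPKM values were calculated by the authors from the counts, exon lengths and library totals, and were recomputed to within 1.8e-12 for the WT. The authors' NOISeq probability in the same file was not used.

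Ratios were taken on the deposited RPKM without a pseudocount, and quotients between genes were given exact conditional odds-ratio intervals (a normal approximation over all pairs of genes). The 2-fold calls and the ratio intervals were tried on counts simulated with Poisson error only. Such counts hold no spread between cultures, so they cannot test for it. RefSeq (NC12) gave symbols and positions for 9729 loci. Of 38 list entries by locus, 2 (NCU01019 and NCU01735) were left out, since neither the annotation nor RefSeq carries the listed name. The COP9 and exosome genes were taken by annotation word. The core genes and lists were chosen with earlier results of these data known. Named genes were the core genes, their neighbours, the gene nearest to each in level, *gul-1*, and of each list those past 2-fold, or else up to 3 with the largest log2 ratios in size and up to 2 of the most abundant. Any further listed gene was named with its value already known. Software was Python 3.11.15 with numpy 2.4.6, pandas 2.3.3 and scipy 1.17.1, and R 4.3.3 with edgeR 4.0.16 for the TMM factors. Alternatives were TMM, median-of-ratios scaling, a library total that leaves out the 50 most abundant genes, a pseudocount of 1 RPKM, reads scaled by the total alone, floors of 5 and 50 RPKM and none, folds of 1.5 and 3, and a counting interval wholly beyond 2-fold.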

Additional observations from a re-analysis of the deposited data

How the results depend on the processing

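No core gene was called higher or lower under any of the alternatives run (the scalings, floors, pseudocount, folds of 1.5 and 3, and the counting interval). Several of these could not have added a call. Another floor leaves a ratio as it is, and 3-fold or the counting interval can only remove calls. At the floor of 50 RPKM *wc-1* and *frh* were not counted. The log2 ratios of the core genes, however, are small enough to move with the library scaling by more than the counting interval. From 0.057 for *frq*, 0.25 for *wc-1*, 0.23 for *wc-2*, 0.21 for *vvd* and 0.14 for *frh*, TMM and median-of-ratios scaling both gave, in that order, -0.093, 0.10, 0.078, 0.055 (0.056 for *vvd* with median-of-ratios) and -0.012. Leaving the 50 most abundant genes out of the library total gave -0.0018 for *frq*, 0.17 for *wc-2* and 0.15 for *vvd*. It gave 0.19 for *wc-1* and 0.079 for *frh*, both inside their counting intervals. A pseudocount of 1 RPKM left all 5 inside their counting intervals. Reads scaled by the total alone give the same ratios by construction, since the exon length cancels between strains. Library scaling cancels in a quotient between core genes, so only the pseudocount could move one, and none left its interval. Over all genes, 171 higher and 116 lower became 137 and 151 with TMM or median-of-ratios scaling, 156 and 127 without the 50 most abundant genes, 476 and 254 at 1.5-fold, 72 and 43 at 3-fold, 87 and 75 at a floor of 50 RPKM and 869 and 329 with no floor, and 317 and 170 at a floor of 5. Of the output genes 2 were lower at 3-fold and 2 higher at 1.5-fold; the 1 higher gene was lost under each scaling, the pseudocount, the floor of 50, 3-fold and the counting interval. *fl* was lost at 3-fold. In all counts under another scaling the floor stayed on the deposited RPKM. With no floor 1 photoreceptor gene was higher. No paired analysis was possible because each strain had 1 library. The intervals cover counting error only, and the spread between cultures is not known.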
